A study of Mus musculus with 92 samples.

Results

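The cells described here are the 5 cells that the study's authors assigned to the state Multi-Lin and the 5 they assigned to the state MP, all taken through the GMP sort gate, 10 of the 92 single cells of the series and 10 of the 45 cells of that gate. They were chosen by their gate and by the state name in the authors' annotation. Multi-Lin and MP are used as the authors' names, since the sources used here do not say how cells were assigned. If expression of these same cells was used to name the states, differences in marker genes are in part built in. In common usage, GMP stands for the granulocyte-monocyte progenitor. All 10 cells came from bone marrow of C57BL/6 mice that carry the allele R412X on both copies of Gfi1, and none of the 92 cells is wild type. Hindlimb bones were crushed, marrow was enriched on beads for CD117 (the receptor encoded by Kit), and sorted cells were lysed and reverse transcribed singly on a microfluidic chip. The labels used here name no animals, no ages and no sexes, so each GEO sample is 1 cell, the gate is 1 sample, and cells of a state are not replicates of it. No test between the states was therefore made, and every difference below describes these 10 cells. The cells carry the numbers 14, 17, 23, 26 and 35 (Multi-Lin) and 10, 15, 24, 30 and 45 (MP), and values are given in that order.

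Progenitors of the marrow commit step by step. Basophils and mast cells depend on the transcription factor GATA2 and store proteases such as carboxypeptidase A3 in granules, neutrophil precursors fill their first (primary) granules with myeloperoxidase and elastase, and monocyte precursors turn on IRF8 and the surface protein Ly6C. A cell that holds messenger RNA of several of these programmes before it settles on one is often called multilineage primed. GFI1, the repressor altered in these mice, is known for its part in the choice of the neutrophil fate.

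The plainest difference lay in the granule proteases. All 5 MP cells held messenger RNA for elastase at a similar high level and almost none for the mast cell protease Cpa3, whereas all 5 Multi-Lin cells held Cpa3 and less Elane than every MP cell. The Multi-Lin cells were unlike each other. Cells 14, 17 and 23 held Ms4a2, Gata2 and Rgs1 and almost no Elane, while cells 26 and 35 held at least 5287 TPM of both Elane and Mpo.

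The start regions of 3 of the mast cell and basophil genes and of Elane are shown as examples. Each is the RefSeq window in build GRCm38.p6 that runs from 250 bases before the annotated start to 50 bases after it, read on the gene's strand. Capitals mark the letters bound in general by GATA factors (AGATAA is the first of 4 spellings, AGATAG the second, TGATAA the third and TGATAG the fourth, on either strand). The windows are Cpa3 at chr3:20242132-20242431 (minus strand), Ms4a2 at chr19:11623670-11623969 (minus strand), Prss34 at chr17:25298144-25298443 (plus strand) and Elane at chr10:79886062-79886361 (plus strand).
Cpa3: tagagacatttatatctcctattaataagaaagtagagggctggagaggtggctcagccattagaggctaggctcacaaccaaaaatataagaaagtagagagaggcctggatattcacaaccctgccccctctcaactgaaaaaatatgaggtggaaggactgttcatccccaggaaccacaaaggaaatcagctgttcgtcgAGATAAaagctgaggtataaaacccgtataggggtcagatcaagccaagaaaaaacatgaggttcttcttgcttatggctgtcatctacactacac
Ms4a2: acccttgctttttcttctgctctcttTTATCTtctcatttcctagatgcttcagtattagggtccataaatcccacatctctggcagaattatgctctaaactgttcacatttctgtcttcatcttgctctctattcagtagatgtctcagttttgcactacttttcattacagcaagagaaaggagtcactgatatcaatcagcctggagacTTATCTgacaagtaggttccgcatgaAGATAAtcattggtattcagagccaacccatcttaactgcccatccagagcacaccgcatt
Prss34: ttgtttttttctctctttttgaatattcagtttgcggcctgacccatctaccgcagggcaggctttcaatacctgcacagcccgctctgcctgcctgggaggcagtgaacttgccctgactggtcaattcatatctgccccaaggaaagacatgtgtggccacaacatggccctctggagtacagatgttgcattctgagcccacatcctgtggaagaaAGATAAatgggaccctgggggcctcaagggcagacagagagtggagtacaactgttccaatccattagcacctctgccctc
Elane: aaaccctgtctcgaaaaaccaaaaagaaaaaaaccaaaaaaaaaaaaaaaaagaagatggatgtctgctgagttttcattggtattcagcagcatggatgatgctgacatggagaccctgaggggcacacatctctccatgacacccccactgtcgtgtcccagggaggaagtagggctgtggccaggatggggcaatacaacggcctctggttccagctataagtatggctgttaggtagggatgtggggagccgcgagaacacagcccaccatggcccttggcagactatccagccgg

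The match in Cpa3 begins 46 bases before the start and that in Prss34 begins 31 bases before it. Ms4a2 holds 3 matches, which begin 224, 37 and 11 bases before the start. Elane holds 0 matches, as do the windows of Mpo, Prtn3, Mcpt8 and Gata2, which are not printed. Csrp3, also not printed, has a window with 0 matches and another with 2. The printed windows thus do not stand for all mast cell and basophil genes. Such letters are common: 29.8% of all 32851 windows hold at least 1 of them. By gene, counting any window, a match was found for 14 of the 24 basophil and mast cell genes with a window, for 3 of 22 primary granule genes, for 6 of 24 monocyte genes and for 33.04% of all 27025 genes. A match is a string of letters and says nothing of binding in these cells.

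Expression is given in TPM, a value per transcript length scaled to sum to 1000000 in each cell. A gene is called detected where its TPM is above 0. The Multi-Lin cells had 4688, 4239, 3069, 3634 and 3528 genes detected, against 4985, 6244, 5850, 5747 and 5618 in the MP cells. Every Multi-Lin cell thus lay below every MP cell, and they remained apart at a threshold of 1 TPM (2551 to 3846 genes in Multi-Lin cells, against 4209 to 5453 in MP cells). The other 35 cells of the gate spanned 2775 to 6612 genes, a range that holds all 10 cells. Less RNA per cell, poorer capture and fewer genes transcribed cannot be told apart with TPM, which keeps no read depth. Of 14 housekeeping genes, 11, 12, 11, 14 and 11 were detected in the Multi-Lin cells, against 14, 14, 13, 14 and 14 in the MP cells. A gene at 0 in a single cell is therefore described as listed at 0, which does not show that it was silent.

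**Figure D1:**
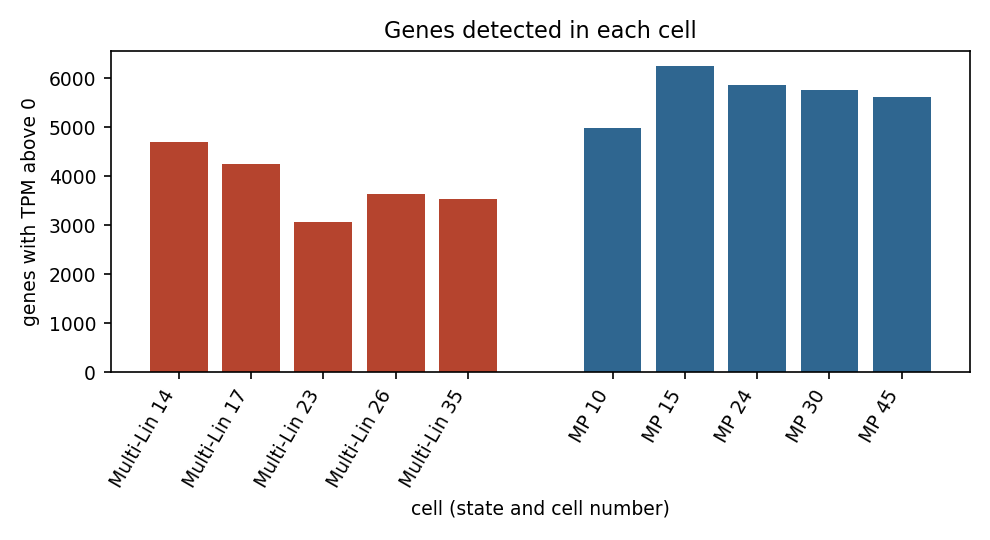
Number of genes with TPM above 0 (vertical axis, from 0) in each of the 5 Multi-Lin cells (red, left) and 5 MP cells (blue, right), 1 bar per cell with no error bar. The highest Multi-Lin cell (4688 genes) lies below the lowest MP cell (4985 genes).

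The comparison across genes is read beside this gap in genes detected. Of 23956 genes in the table, 5887 were compared, each with TPM above 0 in 3 or more cells of a state. The difference is the mean of log2(TPM + 1) over the Multi-Lin cells minus that over the MP cells, a scale that understates the change of low genes. Of the 5887 genes, 565 (9.6%) were at least 2-fold higher in Multi-Lin and 3362 (57.1%) at least 2-fold lower, with a median difference of −1.38. The split depended on the summary over cells: by the ratio of mean TPM plus 1, 1251 genes were at least 2-fold higher and 2463 lower. In 11 genes (0.187%) every Multi-Lin cell lay above every MP cell, and in 207 genes (3.52%) every Multi-Lin cell lay below. Among the 825 genes detected in all 10 cells, 84 were at least 2-fold higher, 251 at least 2-fold lower, and the median was −0.34. Counts for each gene group below are read beside these shares. The share of a cell's whole TPM that a gene group takes is given for most groups, since it does not pass through the filter. A gene that is high in 1 state can pass the filter through that state alone, so a group's median is also given over all its genes in the table; over all 23956 genes the median is 0.

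Basophil and mast cell genes were higher in part of the Multi-Lin cells. Of 30 such genes in the table, 14 were at least 2-fold higher in Multi-Lin, 5 lower and 5 at 0 in all 10 cells; of the 21 compared, 12 were higher, 5 lower and the median was 2.62, against 0.62 over all 30. The group took 2.91, 1.74, 2.71, 0.693 and 0.503% of TPM in the Multi-Lin cells, against 0.963, 1.13, 1.29, 0.949 and 1.09% in the MP cells. In this share, cells 14, 17 and 23 lay above all MP cells and cells 26 and 35 below them all. Most of the share in the MP cells came from Srgn, Ms4a3, Hdc and Fcer1g, which overlapped between the states or were lower in Multi-Lin. The low share of cells 26 and 35 does not hold for each member, and for Cpa3 both lay above every MP cell. The median rested on few cells: it was 0.17 without cell 14, and −0.59 over the 9 members detected in at least 8 of the 10 cells.

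Cpa3, which encodes the carboxypeptidase of mast cell granules, had 4017, 1464, 766, 116 and 1229 TPM in the Multi-Lin cells, against 29.2, 0, 0, 0 and 0 TPM in the MP cells. The groups did not overlap, and the log2 difference was 8.86, the highest among genes with TPM above 0 in 4 or more cells of the higher state. Among the other 35 cells of the gate 1 was above 1 TPM, at 12.6, while the single Multi-Lin cell of the CD11b+ GMP-P gate (cell 56) had 612 TPM. Ms4a2, the beta chain of the high-affinity receptor for immunoglobulin E, had 1035, 2435, 1179, 0 and 0 TPM in the Multi-Lin cells and was listed at 0 in all 5 MP cells. It separated cells 14, 17 and 23 from all others, and cell 56 was also listed at 0.

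Gata2, the transcription factor needed by stem cells and by the mast cell and basophil line, had 673, 1000.5, 589, 17.2 and 0 TPM in the Multi-Lin cells, against 24.5, 0.57, 8.15, 0 and 55.3 TPM in the MP cells. Cell 26 and cell 35 lay within the range of the MP cells, and the log2 difference was 3.69. Lmo4, a LIM-domain partner of transcription factors, had 1377, 1441, 102, 6.41 and 5.46 TPM in the Multi-Lin cells, against 0, 0.57, 1.85, 25.02 and 63.6 TPM in the MP cells. It was high in the same 3 cells as Gata2, and cells 26 and 35 again fell among the MP cells. Csrp3, another LIM-domain protein, had 306, 469.8, 77.4, 0 and 0 TPM in the Multi-Lin cells and was listed at 0 in all 5 MP cells.

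The proteases that mark basophils were split further. Prss34 had 3986, 0, 5721, 0 and 0.5 TPM in the Multi-Lin cells and was listed at 0 in all 5 MP cells. Mcpt8 had 276, 0, 3001, 55.6 and 0 TPM in the Multi-Lin cells, against 0, 167, 0, 0 and 0 TPM in the MP cells. Cell 17, with the most Ms4a2, was thus listed at 0 for both proteases, and MP cell 15 held some Mcpt8. Rgs1, a brake on G protein signalling, had 2415, 336, 3891, 0 and 0 TPM in the Multi-Lin cells and was listed at 0 in the MP cells. Alox5, the first enzyme of leukotriene synthesis, had 536, 0, 340.3, 0.21 and 0.2 TPM in the Multi-Lin cells, against 29.1, 0, 0, 0 and 0 TPM in the MP cells, and again cell 17 was listed at 0.

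Other members of the group did not separate the states. Hdc, which makes histamine, had 695, 703, 1775, 774 and 69.99 TPM in the Multi-Lin cells, against 696, 852, 654, 713 and 1308 TPM in the MP cells, and only cell 35 was far below the rest. Srgn, the granule proteoglycan serglycin, was high in all 10 cells, from 2793 to 8937 TPM in Multi-Lin and from 2548 to 4539 TPM in MP. Ms4a3, a membrane protein of granulocyte-monocyte progenitors, had 1219, 1567, 0, 513 and 561 TPM in the Multi-Lin cells, against 3080.04, 3241, 4818, 2734 and 3256 TPM in the MP cells. It lay below every MP cell in every Multi-Lin cell, the reverse of Cpa3. Fcer1g, the shared gamma chain of Fc receptors, had 349.9, 886, 256, 937 and 3.07 TPM in the Multi-Lin cells, against 464, 1436, 1598, 1041 and 256 TPM in the MP cells, and the states overlapped. Cma1, a mast cell chymase, was listed at 0 in all 10 cells.

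**Figure D2:**
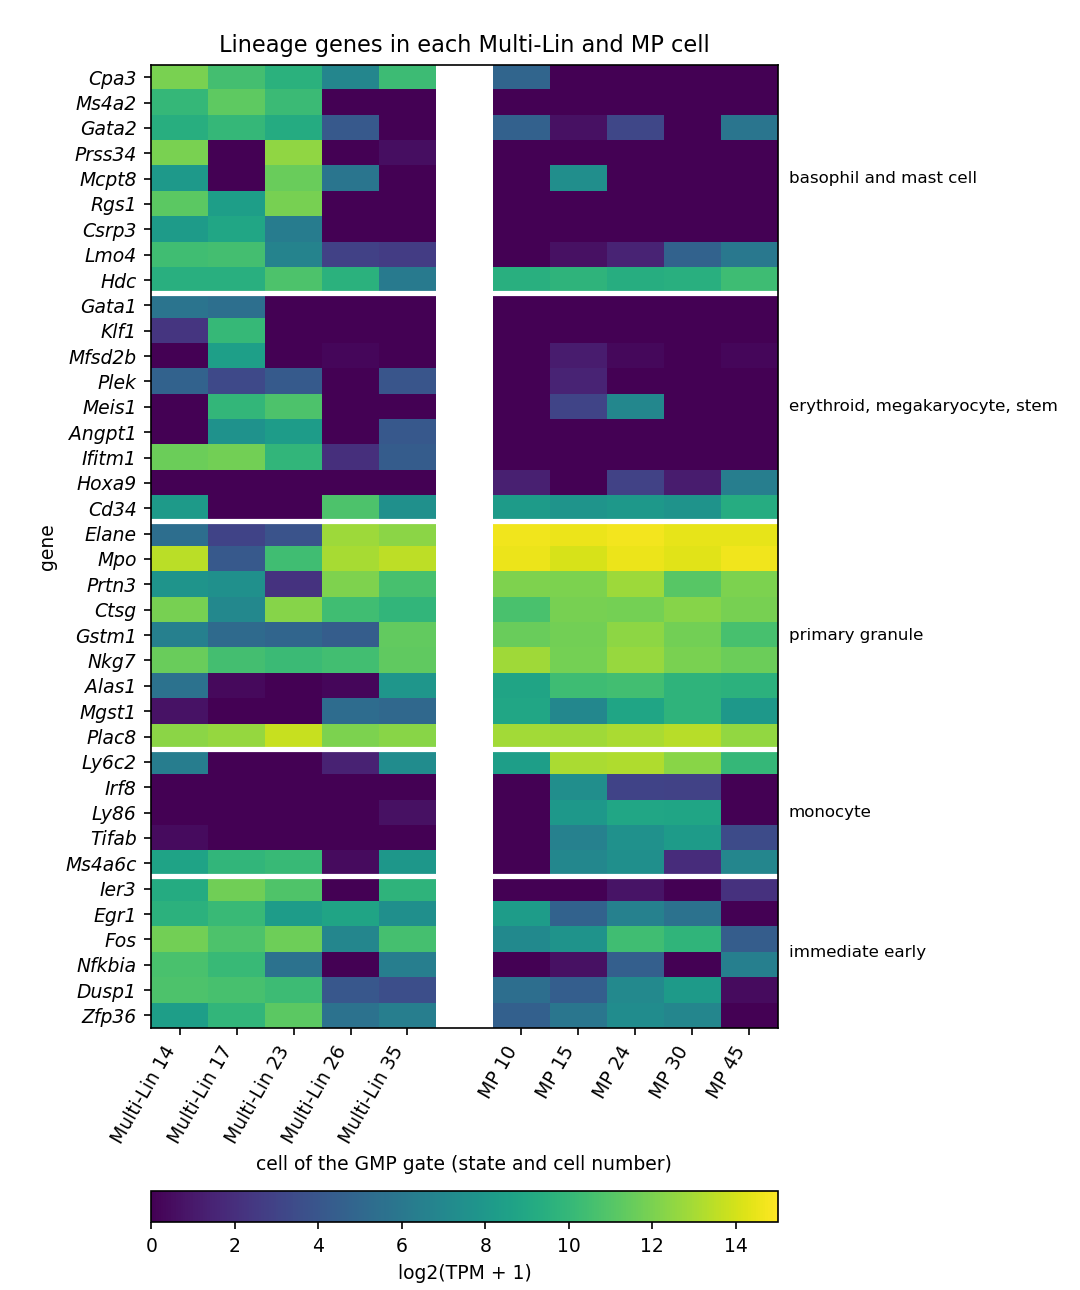
Colour gives log2(TPM + 1), from dark at 0 to bright at high levels, for genes (rows, grouped by list at the right) in the 5 Multi-Lin cells (left block) and the 5 MP cells (right block). Cpa3 is above 0 in every Multi-Lin cell and in 1 MP cell, Ms4a2 is above 0 in 3 Multi-Lin cells, and Elane is brightest in the MP cells, between 22305 and 27048 TPM.

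Genes of red cells and platelets were few in all 10 cells, and several were highest in single Multi-Lin cells. Gata1, which directs the erythroid, megakaryocyte and mast cell lines, had 53.5, 43.2, 0, 0 and 0 TPM in the Multi-Lin cells and was listed at 0 in the MP cells. Klf1, the erythroid Krüppel-like factor, had 3.9, 1041, 0, 0 and 0 TPM in the Multi-Lin cells and was also listed at 0 in the MP cells. Cell 17 stood alone here, with 87.6 TPM of the carbonic anhydrase gene Car2 and 357 TPM of Mfsd2b, a lipid exporter of red cells and platelets. The defining genes Epor, Hbb-b1 and Car1 were listed at 0 in all 10 cells, and so were the platelet genes Pf4, Gp1bb and Vwf. Over the 22 erythroid genes in the table, 5 were at least 2-fold higher in Multi-Lin, 2 lower and 14 at 0 in all 10 cells. Of the 3 compared, 1 was higher and 2 lower, with a median of −1.26, against 0 over all 22. The lower genes were Tfrc and Nfe2. Tfrc had 0, 0, 0, 91.2 and 439 TPM in the Multi-Lin cells, against 0, 53.1, 306, 101 and 94.8 TPM in the MP cells. Nfe2 had 701, 28.6, 0, 1.09 and 46.45 TPM in the Multi-Lin cells, against 0, 232, 82.7, 72.6 and 114 TPM in the MP cells. The group took 0.0759, 0.156, 0.00122, 0.00925 and 0.0541% of TPM in the Multi-Lin cells, against 0, 0.0286, 0.0407, 0.0174 and 0.0209% in the MP cells, which overlap. Of 18 megakaryocyte genes, 4 were at least 2-fold higher in Multi-Lin, 0 lower and 10 at 0 in all 10 cells. They took 0.0236, 0.0251, 0.0177, 0.0115 and 0.0219% of TPM in the Multi-Lin cells, against 0.0233, 0.0129, 0.0246, 0.00696 and 0.0082% in the MP cells, with overlap. One of them, Plek (pleckstrin, a protein kinase C substrate of platelets), had 25.2, 8.76, 18.1, 0 and 14.4 TPM in the Multi-Lin cells, against 0, 1.79, 0, 0 and 0 TPM in the MP cells.

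Stem and multipotent progenitor genes differed in both directions. Of 33 in the table, 10 were at least 2-fold higher in Multi-Lin, 9 lower and 8 at 0 in all 10 cells, and the median over all 33 was 0. Over the 16 compared it was −0.37, and leaving out 1 cell in turn gave −1.24 to 0.31, so no direction is read from it. The group took 0.619, 0.72, 0.778, 0.259 and 0.231% of TPM in the Multi-Lin cells, against 0.242, 0.171, 0.178, 0.104 and 0.22% in the MP cells. In share, cells 14, 17, 23 and 26 lay above every MP cell and cell 35 within their range. Single genes weighed heavily in these shares. In cell 26 most of the share was Cd34, at 1773 TPM, and in cells 14 and 17 a large part was Ifitm1. Cell 26 had 7 members above 1 TPM, the fewest of the 10 cells, against 10 to 14 in the MP cells. Ifitm1, an interferon-inducible membrane protein, had 3219, 3524, 941, 3.1 and 19.8 TPM in the Multi-Lin cells and was listed at 0 in all 5 MP cells. It was high in cells 14, 17 and 23 and low but present in cells 26 and 35, and 11 of the other 35 GMP cells were above 1 TPM. Meis1, a homeodomain factor of stem cells, had 0, 989, 1764, 0 and 0 TPM in the Multi-Lin cells, against 0, 7.5, 121, 0 and 0 TPM in the MP cells. Its partner Hoxa9 was listed at 0 in all 5 Multi-Lin cells, against 1.52, 0, 6.69, 1.17 and 83.4 TPM in the MP cells. Thus cells 17 and 23 held Meis1 and were listed at 0 for Hoxa9, which was low in most MP cells too.

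Angpt1, a growth factor that stem and megakaryocyte cells secrete, had 0, 202, 318, 0 and 16.8 TPM in the Multi-Lin cells and was listed at 0 in the MP cells. Gpr56, an adhesion receptor of stem cells, had 546, 30.96, 13.6, 88.97 and 165 TPM in the Multi-Lin cells, against 0, 0, 29.6, 0 and 205 TPM in the MP cells, with MP cell 45 above 4 of the Multi-Lin cells. Id1, an inhibitor of basic helix-loop-helix factors and a known GFI1 target, had 36.9, 0, 3149, 0 and 0 TPM in the Multi-Lin cells and was listed at 0 in the MP cells, so cell 23 carried nearly all of it. The stem cell antigen Ly6a (Sca-1) ran the other way. It had 1.33, 0, 0, 0 and 0.65 TPM in the Multi-Lin cells, against 3.4, 77.5, 98.1, 49.97 and 5.8 TPM in the MP cells, with no overlap.

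The primary granule genes of neutrophils were lower as a group. None of 24 was at least 2-fold higher in Multi-Lin, 19 were at least 2-fold lower (57.1% of all genes compared), and the median was −2.57 over the 23 compared and −2.12 over all 24. In 6 of them every Multi-Lin cell lay below every MP cell (3.52% of all genes compared). The group took 4.1, 1.91, 3.31, 3.75 and 3.56% of TPM in the Multi-Lin cells, against 9.03, 8.04, 10.3, 8.17 and 8.38% in the MP cells. Every Multi-Lin cell lay far below every MP cell.

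Elane, neutrophil elastase, had 41.1, 7.1, 13.2, 7110.4 and 5287 TPM in the Multi-Lin cells, against 26062, 24241, 27048, 22305 and 22421 TPM in the MP cells, and the log2 difference was −7.09. The MP cells were close to each other, while the Multi-Lin cells fell into very low and intermediate levels. Every one of the other 35 GMP cells had at least 4876 TPM, so the levels of cells 14, 17 and 23 were not seen elsewhere in the gate, and cell 56 of the other gate had 1.90 TPM. Mpo, myeloperoxidase, had 11003, 17.1, 1356, 8544 and 11779 TPM in the Multi-Lin cells, against 23711, 17542, 24358, 20372 and 26356 TPM in the MP cells. Cell 14 therefore held as much Mpo as cell 35 with almost no Elane. Cell 17 was the lowest of the 10 in both.

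Prtn3, the granule protease proteinase 3, had 216, 187, 3.54, 4468 and 1619.9 TPM in the Multi-Lin cells, against 4465, 4213, 7148, 2158 and 4253 TPM in the MP cells, and cell 26 lay within the MP range. Ctsg, cathepsin G, had 3848, 129.8, 4998, 1344 and 934 TPM in the Multi-Lin cells, against 1639, 3859, 3722, 4925 and 3848 TPM in the MP cells. It overlapped between the states, and cell 23 had the highest level of the 10. These 3 granule proteases thus gave 3 different orders of the Multi-Lin cells.

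Gstm1, a glutathione transferase, had 90.96, 35.8, 28.2, 20.2 and 2729 TPM in the Multi-Lin cells, against 2987, 3529, 5490.1, 3548 and 1608 TPM in the MP cells, and only cell 35 reached the MP range. Alas1, the first enzyme of heme synthesis, had 48.5, 0.28, 0, 0.22 and 238 TPM in the Multi-Lin cells, against 428, 1293, 1400.2, 873 and 806 TPM in the MP cells, with no overlap. Mgst1, a membrane glutathione transferase, had 0.68, 0, 0, 38.04 and 33.1 TPM in the Multi-Lin cells, against 475, 125, 451, 877 and 252 TPM in the MP cells, also with no overlap. Plac8, abundant in myeloid progenitors, did not separate the states, at 4194 to 13754 TPM in Multi-Lin and 6182 to 10791 TPM in MP. Nkg7, a granule membrane protein, was high in all 10 cells and still did not overlap, at 1210 to 3058 TPM in Multi-Lin and 3210 to 7418 TPM in MP.

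Genes of the secondary and later granules and of the neutrophil's oxidase took 0.261, 0.138, 0.396, 0.152 and 0.0351% of TPM in the Multi-Lin cells, against 0.446, 0.24, 0.304, 0.415 and 0.338% in the MP cells, which overlap. Of 25 in the table, 1 was at least 2-fold higher in Multi-Lin and 10 lower, and the median was −1.36 over the 17 compared, close to that of all genes compared, and −0.42 over all 25. Cybb, the catalytic subunit of the phagocyte oxidase, had 0, 0.31, 0.65, 0 and 0.23 TPM in the Multi-Lin cells, against 17.6, 26.4, 147, 79.4 and 46.98 TPM in the MP cells. Pglyrp1, a granule peptidoglycan-binding protein, had 17.01, 0, 0, 0 and 1.96 TPM in the Multi-Lin cells, against 291, 284, 649, 178 and 572 TPM in the MP cells. Both were lower without overlap. S100a9, a subunit of calprotectin, was at 1451 TPM in Multi-Lin cell 23 and between 7.02 and 39.4 TPM in the other 9 cells.

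Monocyte genes took less of the TPM in every Multi-Lin cell than in MP cells 15, 24 and 30, and the MP cells differed among themselves. Of 28 in the table, 4 were at least 2-fold higher in Multi-Lin, 14 lower and 4 at 0 in all 10 cells. Of the 14 compared, 11 were lower (57.1% of all genes compared) and the median was −3.74, against −0.94 over all 28. The group took 0.162, 0.111, 0.253, 0.113 and 0.173% of TPM in the Multi-Lin cells, against 0.297, 1.16, 1.36, 0.917 and 0.239% in the MP cells. MP cells 10 and 45 lay near the Multi-Lin cells, and cell 23 was above MP cell 45. Ly6c2, which encodes the Ly6C antigen, had 80.4, 0, 0, 1.68 and 155 TPM in the Multi-Lin cells, against 337, 8730.1, 9522, 5150.4 and 1001 TPM in the MP cells. The states did not overlap, and the log2 difference of −8.39 was the lowest among genes with TPM above 0 in 4 or more cells of the higher state. Of the other 35 GMP cells the lowest had 43.1 TPM and the median was 6965 TPM.

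Irf8, the factor that directs monocyte and dendritic cell fate, was listed at 0 in all 5 Multi-Lin cells, against 0, 166, 7.26, 6.84 and 0 TPM in the MP cells. Ly86, which encodes the cell surface protein MD-1, had 0, 0, 0, 0 and 0.62 TPM in the Multi-Lin cells, against 0, 253, 471, 444 and 0 TPM in the MP cells. MP cells 15, 24 and 30 held both genes and MP cells 10 and 45 neither. Ms4a6c, a membrane protein of monocytes, went against its list, with 408, 954, 1107, 0.33 and 243 TPM in the Multi-Lin cells, against 0, 124, 174, 2.67 and 115 TPM in the MP cells. Slpi, a secreted inhibitor of elastase, had 0.74, 0, 0, 0 and 389 TPM in the Multi-Lin cells, against 685, 859, 1048, 1029 and 251 TPM in the MP cells, and Multi-Lin cell 35 lay above MP cell 45.

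**Figure D3:**
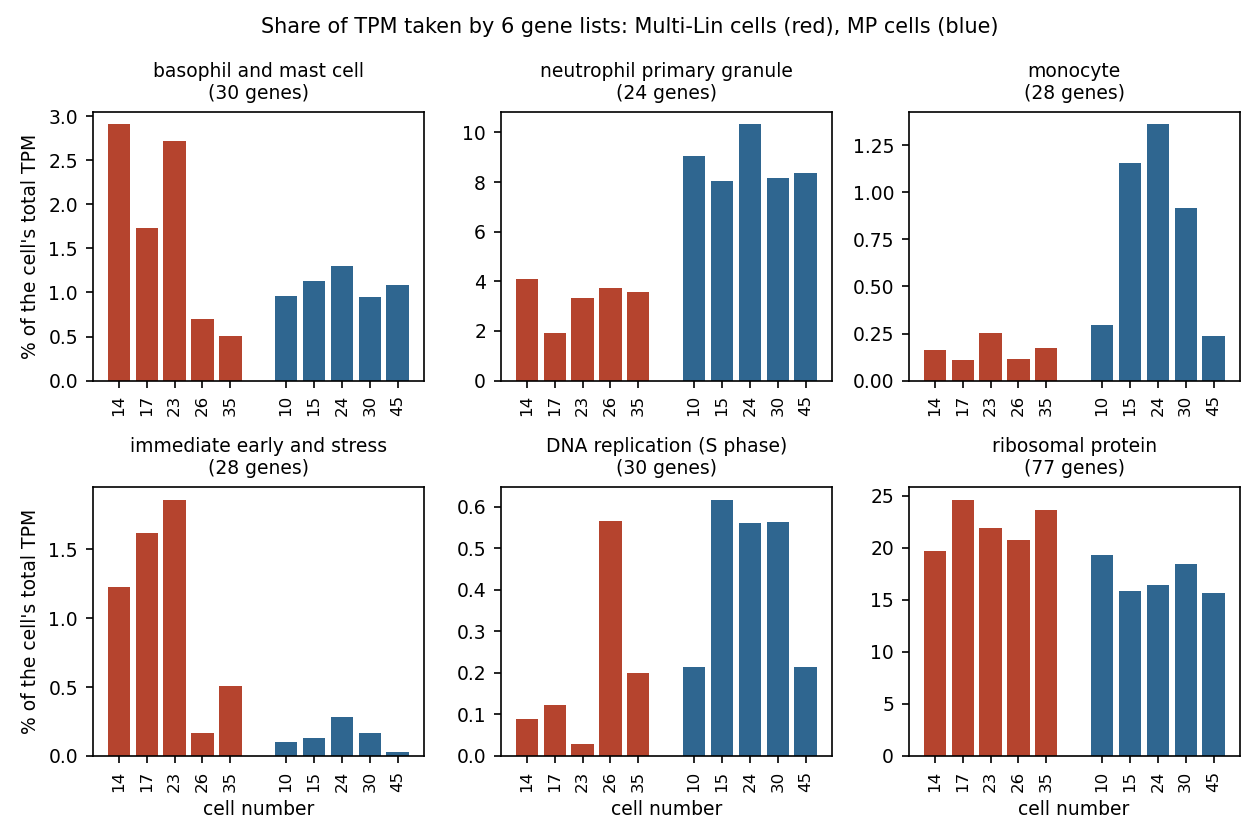
Percent of each cell's total TPM (vertical axes, each from 0) taken by 6 gene lists, over all genes of the list in the table, with 1 bar per cell: Multi-Lin cells in red on the left, MP cells in blue on the right. The primary granule genes reach at most 4.11% in Multi-Lin cells and at least 8.04% in MP cells, and the ribosomal protein genes at least 19.7% in Multi-Lin cells and at most 19.3% in MP cells.

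Transcription factors of the granulocyte line were mixed. Of 16 in the table, 6 were at least 2-fold higher in Multi-Lin and 4 lower. They took 0.599, 0.379, 0.407, 0.0772 and 0.161% of TPM in the Multi-Lin cells, against 0.0593, 0.0662, 0.166, 0.136 and 0.0394% in the MP cells, with cells 14, 17 and 23 above every MP cell. Gfi1 itself had 0, 0, 0, 15.8 and 2.77 TPM in the Multi-Lin cells, against 0.89, 18.4, 90.1, 5.7 and 0.75 TPM in the MP cells. The states overlapped, the median of the other 35 GMP cells was 55.8 TPM, and a TPM of the whole gene does not show the mutant allele. Cebpe, which drives the later granules, was at 175 TPM in Multi-Lin cell 26 and listed at 0 in the other 4, against 9.09, 32.5, 47.98, 68.7 and 26.97 TPM in the MP cells. Per3, a clock gene, was listed at 0 in all 5 Multi-Lin cells, against 121, 58.96, 35.04, 15.8 and 50.7 TPM in the MP cells. Runx1 had 57.3, 54.6, 148, 12.5 and 0 TPM in the Multi-Lin cells, against 0.98, 19.3, 3.71, 0.13 and 10.2 TPM in the MP cells. Myb, a factor of dividing progenitors, did not separate the states, at 70.7 to 332 TPM in Multi-Lin and 46.7 to 308 TPM in MP. The ETS factor Fli1 did not either, at 71.9 to 204 TPM in Multi-Lin and 63.8 to 232 TPM in MP.

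Of 22 known GFI1 targets in the table, 7 were at least 2-fold higher in Multi-Lin and 6 lower, and the median was 0 over all 22 and −0.89 over the 11 compared. They took 0.157, 0.29, 0.559, 0.0475 and 0.0572% of TPM in the Multi-Lin cells, against 0.0482, 0.024, 0.0512, 0.0471 and 0.0258% in the MP cells. Cells 14, 17, 23 and 35 lay above every MP cell, cells 14, 17 and 23 by the most. Much of this share came from few genes. Egr1, also an immediate early gene, had 784 TPM in cell 14 and 1144 TPM in cell 17, and Id1 made up most of the share in cell 23. The number of targets above 1 TPM was alike, at 4 to 9 in the Multi-Lin cells and 4 to 10 in the MP cells. Of 37 factors of lineage choice, 14 were at least 2-fold higher and 7 lower, and the median was 0.13 over all 37 and −0.17 over the 24 compared. They took 0.419, 0.549, 0.794, 0.225 and 0.206% of TPM in the Multi-Lin cells, against 0.132, 0.117, 0.101, 0.0673 and 0.0768% in the MP cells. In share, every Multi-Lin cell lay above every MP cell. Without wild type cells, the part of the Gfi1 allele in these levels was not analysed here.

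Immediate early genes, which cells switch on within minutes of a stimulus and also during tissue handling, were higher in part of the Multi-Lin cells. Of 28 such genes and their feedback regulators, 19 were at least 2-fold higher in Multi-Lin and 2 lower; of the 18 compared, 14 were higher (9.6% of all genes compared), 1 lower and the median was 3.22, against 2.31 over all 28. The group took 1.23, 1.62, 1.86, 0.166 and 0.506% of TPM in the Multi-Lin cells, against 0.104, 0.13, 0.282, 0.168 and 0.0317% in the MP cells. Cells 14, 17 and 23 were highest, cell 35 was above every MP cell, and cell 26 was within the MP range. Cells 14, 17 and 23 are also those with the most mast cell and basophil transcripts, and the part of handling in either was not tested.

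Ier3, a stress-induced survival gene, had 603, 3476, 1892, 0 and 864 TPM in the Multi-Lin cells, against 0, 0, 0.76, 0 and 3.32 TPM in the MP cells. Fos had 3642, 1783, 3333, 119.5 and 1523 TPM in the Multi-Lin cells, against 137, 204, 1362, 909 and 20.6 TPM in the MP cells. Egr1 had 784, 1144, 308, 424 and 176 TPM in the Multi-Lin cells, against 313, 24.9, 96.3, 48.8 and 0 TPM in the MP cells. The states overlapped in all 3 genes, Ier3 and Fos through the low cell 26 and Egr1 through MP cell 10. Nfkbia, the feedback inhibitor of NF-kB, had 1681, 1107, 49.6, 0 and 84.5 TPM in the Multi-Lin cells, against 0, 0.62, 22.6, 0 and 88.3 TPM in the MP cells. Zfp36, which shortens the life of inflammatory messages, had 339, 922, 2359, 48.7 and 83.8 TPM in the Multi-Lin cells, against 23.6, 58.1, 157, 116 and 0 TPM in the MP cells.

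Genes of DNA replication were lower in most Multi-Lin cells. None of 30 in the table was at least 2-fold higher and 27 were at least 2-fold lower. Of the 27 compared, 25 were lower (57.1% of all genes compared). The median was −3.49 over the 27 compared and −2.99 over all 30. The group took 0.0888, 0.123, 0.0279, 0.566 and 0.198% of TPM in the Multi-Lin cells, against 0.214, 0.617, 0.56, 0.562 and 0.215% in the MP cells. Cell 26 was as high as the MP cells, and cell 35 was just below the lowest of them. Rrm2, a subunit of ribonucleotide reductase, had 0, 0, 0.73, 432 and 0 TPM in the Multi-Lin cells, against 36.2, 615, 707, 881 and 43.8 TPM in the MP cells. Mcm2, a subunit of the replicative helicase, had 0, 0, 0, 119 and 32.2 TPM in the Multi-Lin cells, against 545, 137, 290.4, 42.4 and 167 TPM in the MP cells. In both genes only cell 26, and for Mcm2 cell 35, came near the MP levels.

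Mitosis genes did not follow the replication genes. Of 30, 3 were at least 2-fold higher in Multi-Lin and 12 lower, and the median was −0.63 over the 26 compared and over all 30. The sign rests on which cells are set side by side: cells 14 and 17 against MP cells 10 and 45 gave 2.93. The group took 0.824% of TPM in cell 14 and 0.596% in cell 17, 0.204% in cell 35, 0.0254% in cell 26 and 0.000333% in cell 23, against 0.0486% to 0.298% in the MP cells. Cells 14 and 17 were thus above every MP cell and cells 23 and 26 below every MP cell. Ube2c, which loads ubiquitin for exit from mitosis, had 2101, 1053, 0, 1.54 and 2.69 TPM in the Multi-Lin cells, against 0.7, 5.64, 25.5, 184 and 334 TPM in the MP cells. Mki67, the Ki-67 proliferation antigen, had 265, 90.6, 0, 0.06 and 275 TPM in the Multi-Lin cells, against 3.3, 4.57, 0.07, 3.91 and 4.17 TPM in the MP cells. Cdc25c and Plk1, which act at the entry into mitosis, were at 1178 and 834 TPM in cell 14 and at most 0.30 TPM in the other 9 cells. In cell 23 no mitosis gene was above 1 TPM.

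Ribosomal protein genes took a larger share of the Multi-Lin cells. Their 77 genes made up 19.7, 24.6, 21.9, 20.7 and 23.6% of TPM in the Multi-Lin cells, against 19.3, 15.9, 16.4, 18.5 and 15.6% in the MP cells. The states did not overlap, by a narrow margin between cell 14 and MP cell 10. On the log2 scale the median was 0.30, with 0 genes at least 2-fold higher and 4 lower. One member stood apart: Rpl30, of the large subunit, was listed at 0 in Multi-Lin cells 14, 17, 23 and 26 and had 158 TPM in cell 35, against 587, 528, 282, 198 and 518 TPM in the MP cells. Ribosomal protein genes have many near-identical pseudogenes, so values of single members are uncertain. Genes that build ribosomes were lower, with 17 of 22 at least 2-fold lower, and 1 of 22 higher. Of the 21 compared, 17 were lower (57.1% of all genes compared). Cells 26 and 35, with 0.628% and 1.03% of TPM in that group, lay in or above the MP range of 0.518% to 0.920%, and cells 14, 17 and 23 below it, at 0.158% to 0.304%.

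Energy genes were lower in 4 of the 5 Multi-Lin cells than in every MP cell. Oxidative phosphorylation took 0.986, 0.618, 0.981, 2.29 and 1.6% of TPM in the Multi-Lin cells, against 1.9, 2.1, 1.72, 2.0 and 1.77% in the MP cells, and glycolysis took 0.388, 0.335, 0.789, 1.53 and 0.714% in the Multi-Lin cells, against 1.28, 1.4, 1.47, 1.28 and 1.71% in the MP cells. Cell 26 was the exception, above every MP cell in oxidative phosphorylation and within their range in glycolysis. Of 25 oxidative phosphorylation genes, all compared, 1 was at least 2-fold higher in Multi-Lin and 21 lower (median −2.65). Of 14 glycolysis genes 0 were higher and 11 lower (median of the 13 compared −3.41, of all 14 −3.13). These counts and those below stand beside 57.1% of all genes compared that were at least 2-fold lower. Slc25a5, the carrier that exchanges ATP for ADP in mitochondria, had 47.5, 36.9, 4.04, 8979 and 4976 TPM in the Multi-Lin cells, against 3507, 2919, 4171, 3115 and 2634 TPM in the MP cells. Cells 26 and 35 exceeded every MP cell there, while cells 14, 17 and 23 were far below. Ldha, lactate dehydrogenase, had 621, 56.1, 0, 267 and 863 TPM in the Multi-Lin cells, against 1292, 1492, 1238, 1277 and 3034 TPM in the MP cells, with no overlap. Of 20 chaperones of the endoplasmic reticulum, 0 were higher and 14 lower, and the median of −1.40 was close to that of all genes compared. They took 0.682, 0.772, 0.931, 1.02 and 0.908% of TPM in the Multi-Lin cells, against 1.36, 1.02, 1.11, 1.06 and 1.52% in the MP cells, with no overlap, though cell 26 came close to MP cell 15. The disulphide isomerase Pdia4 had 67.7, 0.3, 0, 4.76 and 0.46 TPM in the Multi-Lin cells, against 476, 354, 283, 503 and 414 TPM in the MP cells. Of 21 aminoacyl-tRNA synthetases, which charge transfer RNAs, 2 were higher and 17 lower, and the median was −2.74 over the 18 compared and −2.42 over all 21. They took 0.264, 0.0218, 0.0261, 0.373 and 0.304% of TPM in the Multi-Lin cells, against 0.419, 0.336, 0.271, 0.184 and 0.331% in the MP cells, with overlap.

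**Figure D4:**
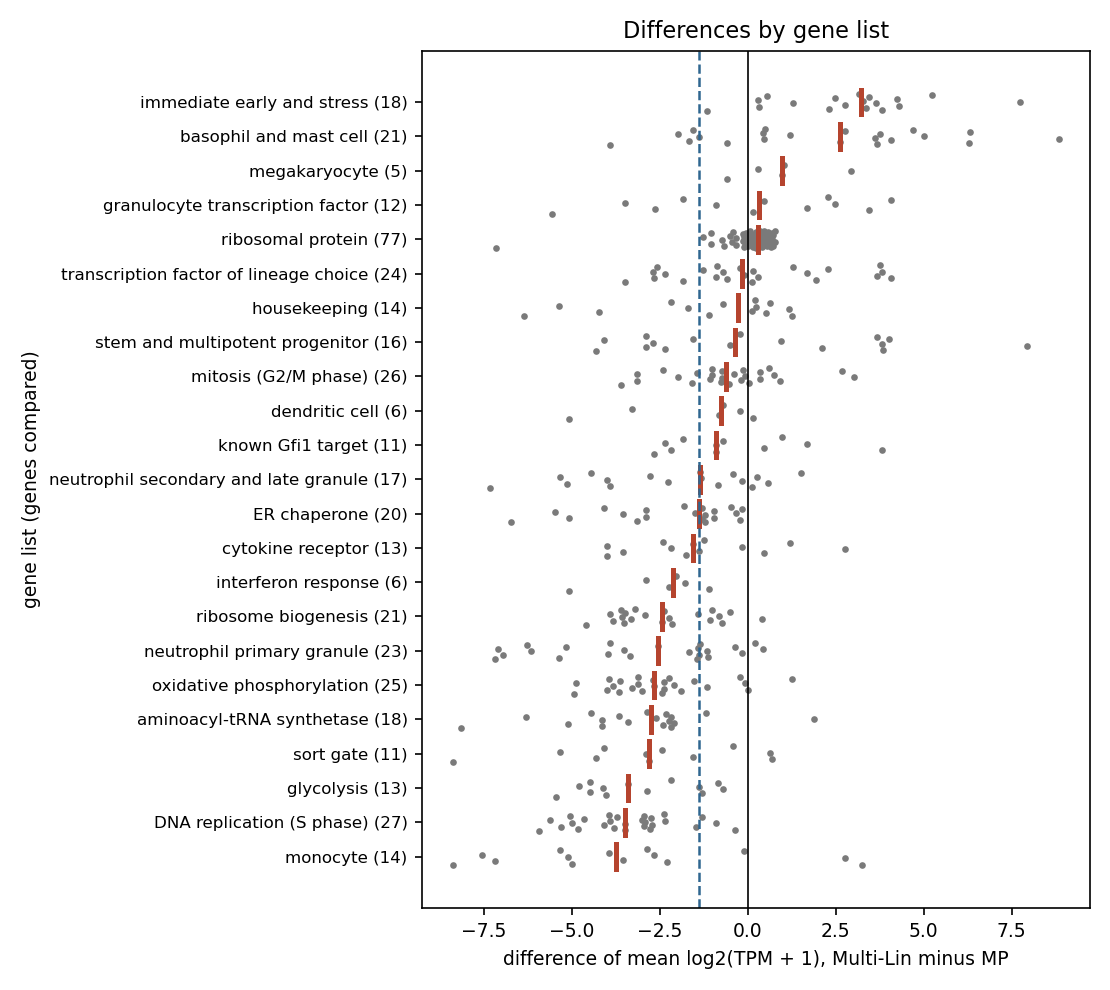
Each point is a gene: its mean log2(TPM + 1) over the 5 Multi-Lin cells minus that over the 5 MP cells (horizontal axis), for the genes compared in each list of at least 5 (vertical axis, with their number). Red bars are list medians, the dashed blue line is the median of all 5887 genes compared (−1.38) and the black line is 0. Immediate early genes (3.22) and basophil and mast cell genes (2.62) have the highest medians and monocyte genes (−3.74) the lowest among the genes compared; over all genes of these lists in the table the medians are 2.31, 0.62 and −0.94, and glycolysis genes (−3.13) are then the lowest.

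Over all genes compared, the 11 that were higher in every Multi-Lin cell than in every MP cell were Cpa3, Ifitm1, Ptprs, Vamp5, Dock10, Ttyh2, Klhl41, Zfp488, Zfp65, Iqgap1 and Myh9. Ptprs, a receptor tyrosine phosphatase, had 386, 409.9, 922, 51.3 and 162 TPM in the Multi-Lin cells, against 0, 9.91, 17.01, 0 and 8.13 TPM in the MP cells. Vamp5, a SNARE protein of membrane fusion, had 107, 315, 114, 192 and 100.2 TPM in the Multi-Lin cells, against 1.47, 0, 79.95, 0 and 0 TPM in the MP cells. All Multi-Lin cells held it, and MP cell 24 came near the lowest of them. Myh9, the heavy chain of non-muscle myosin, was detected in all 10 cells, at 108, 122, 204, 60.02 and 78.3 TPM in the Multi-Lin cells, against 41, 49.8, 36.05, 25.8 and 40.9 TPM in the MP cells. Iqgap1, a scaffold of the actin cytoskeleton, was likewise detected in all 10, at 168, 160.2, 849, 250.02 and 245 TPM in the Multi-Lin cells, against 69.9, 90.8, 157, 49.6 and 129 TPM in the MP cells. Both are therefore free of listed zeros.

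Dusp6, a phosphatase that damps ERK signalling, had 484, 2.13, 5793, 0.63 and 657 TPM in the Multi-Lin cells, against 0, 0.34, 0, 8.2 and 0 TPM in the MP cells. Cd9, a tetraspanin of stem cells, mast cells and platelets, had 519, 1946, 46.3, 709 and 956 TPM in the Multi-Lin cells, against 140.2, 0, 17.8, 126 and 0 TPM in the MP cells. In both genes 1 or more Multi-Lin cells fell among the MP cells. The lowest differences after Ly6c2 were of Kars, the lysyl-tRNA synthetase, and of Mcu, the calcium channel of mitochondria. Kars had 0, 6.31, 0, 0.29 and 22.4 TPM in the Multi-Lin cells, against 1591, 699.8, 906, 636 and 670.4 TPM in the MP cells. Mcu had 0, 0.26, 0, 0 and 0.2 TPM in the Multi-Lin cells, against 192, 360.1, 216, 372 and 396 TPM in the MP cells. Of the 207 genes lower without overlap, 64 were listed at 0 in all 5 Multi-Lin cells, whereas 1 of the 11 higher genes (Ifitm1) was listed at 0 in all 5 MP cells.

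Across cells, the Multi-Lin cells were no more alike than they were like MP cells. The Pearson correlation of log2(TPM + 1) over the 5887 genes compared, given as a description, ran from 0.335 to 0.462 between Multi-Lin cells (median 0.397), from 0.273 to 0.471 between a Multi-Lin and an MP cell (median 0.394), and from 0.495 to 0.574 between MP cells (median 0.515). Cell 26 correlated with the MP cells at 0.448 to 0.471 and with the other Multi-Lin cells at 0.335 to 0.448. Cell 35 correlated with the MP cells at 0.455 to 0.471 and with the other Multi-Lin cells at 0.358 to 0.448. Cell 17 did the reverse, at 0.349 to 0.382 with the MP cells and 0.390 to 0.462 with the other Multi-Lin cells.

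Over the 825 genes detected in all 10 cells the picture was different. There cell 17 correlated at 0.661 to 0.703 with the MP cells and at 0.589 to 0.694 with the other Multi-Lin cells, and the median between Multi-Lin cells (0.634) was below that between the states (0.733). The number of genes detected differs between the states, and its part in these correlations was not tested.

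**Figure D5:**
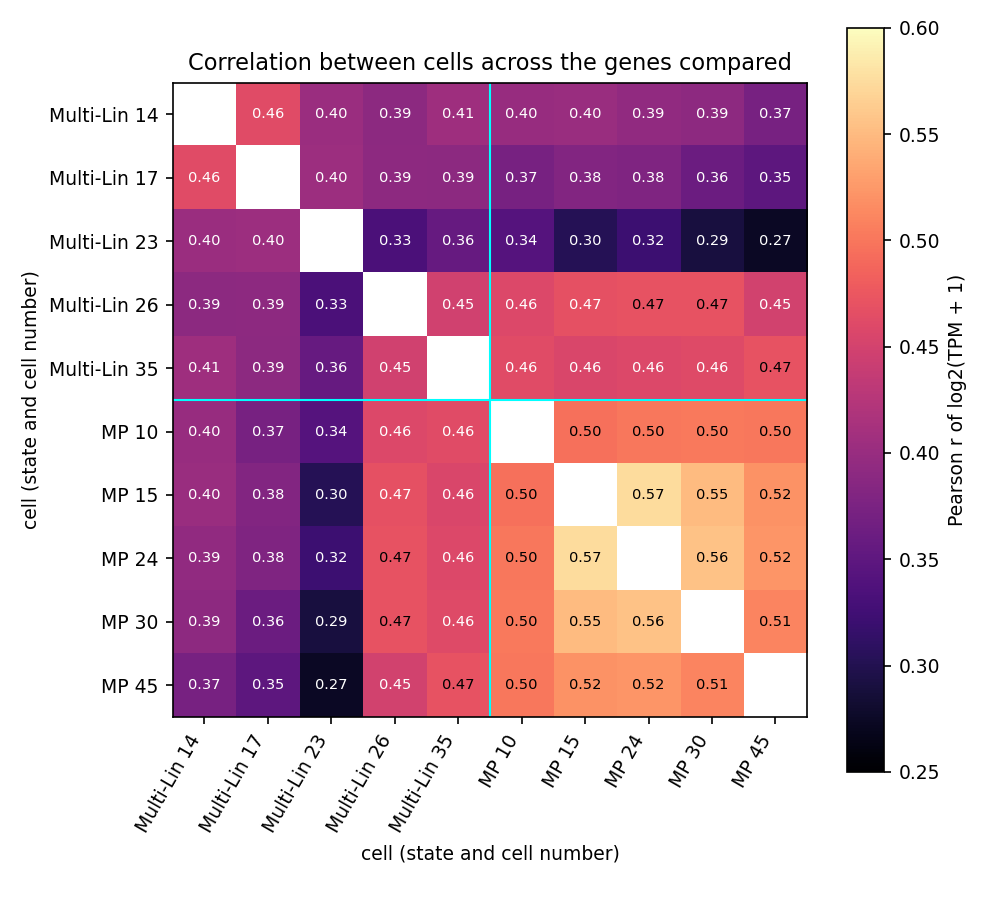
Pearson correlation of log2(TPM + 1) across the 5887 genes compared, for each pair of the 10 cells, with the 5 Multi-Lin cells first and the 5 MP cells after them on both axes. MP pairs lie at 0.495 or above, and Multi-Lin cells 26 and 35 have higher values with MP cells than cells 14, 17 and 23 do.

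Each Multi-Lin cell also had genes of its own. Counting genes at least 8-fold above the next highest of the 10 cells, cells 14, 17, 23, 26 and 35 had 249, 182, 195, 142 and 133, against 204, 220, 255, 212 and 242 in the MP cells. Their number was thus no higher in Multi-Lin, where fewer genes were detected per cell. The counts were not set against the genes detected in each cell. A few are named because of what they are known to do, chosen after their values were seen. The highest of cell 14 was Cdc25c. The highest of cell 17 were Cd200r3, an activating receptor of mast cells and basophils, at 1031 TPM, and Icam4, an adhesion molecule of red cells, at 852 TPM, both listed at 0 in the other 9 cells. Among the highest of cell 23 was Havcr2, the surface receptor TIM-3, at 1527 TPM, against at most 0.34 TPM in the other 9 cells. Among the highest of cell 26 was Fance, of the Fanconi anaemia DNA repair pathway, at 883 TPM, and the highest of cell 35 was Slc25a38, a mitochondrial glycine carrier, at 1107 TPM. In the MP cells the highest such genes were Abtb1 (cell 10), Spns1 (cell 15), Dgcr14 (cell 24), Trim68 (cell 30) and Iqcc (cell 45).

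Markers of other cells were looked at in the same way. Cell 26 had 1039 TPM of Cd79b, a part of the B cell receptor, 907 TPM of H2-Ab1, an antigen-presenting class II chain, and 521 TPM of Irf5. The other Multi-Lin cells had at most 1.40, 11.3 and 0 TPM of these genes, and the MP cells up to 186, 166 and 28.8 TPM. The defining B cell genes Cd79a, Pax5 and Ebf1 were listed at 0 in all 10 cells, and the 12 B cell genes took at most 0.104% of TPM in Multi-Lin cells and at most 0.0186% in MP cells. Cell 23 had 389 TPM of Cd4 and 86.4 TPM of Lck, while Cd3e, Cd3d and Cd3g were listed at 0 in all 10 cells. The eosinophil genes Epx, Prg2 and Ccr3 were listed at 0 throughout, and the highest of the 10 genes of that list reached 0.92 TPM. A part of doublets in the mixed profiles was not tested.

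Genes of the surface proteins used to purify such progenitors were uneven too. Kit, whose product the beads select, had 19.3, 0.43, 0, 0 and 5.64 TPM in the Multi-Lin cells, against 0, 68.5, 1.44, 5.16 and 38.2 TPM in the MP cells. Cd34 had 286, 0, 0, 1773 and 187 TPM in the Multi-Lin cells, against 303, 220.4, 256, 206 and 620.1 TPM in the MP cells, and Fcgr3, which encodes the Fc receptor CD16, had 848, 116, 24.6, 1075 and 0 TPM in the Multi-Lin cells, against 461, 420.3, 734, 233 and 1386 TPM in the MP cells. Cells 17 and 23 had little or no Kit and Cd34 message, and cell 35 was listed at 0 for Fcgr3. Message levels of these genes do not show the protein on the sorted cell. Of the 4 genes that mark the contrast, Cpa3, Elane and Ly6c2 separated all Multi-Lin from all MP cells, and Gata2 separated cells 14, 17 and 23. Whether these genes served to name the states is not known, so their separation is only a description.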

How the data were processed

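The deposited table gives log2 values of 23956 genes across 92 cells. Undoing the logarithm gives the authors' TPM plus 1, since TPM summed to 1000000 in each of the 10 cells once the added last row (Ly6g) was left out. Per the submitters' processing notes, Bowtie2, RSEM and the mm9 build were used, without versions. States came from the authors' deposited annotation, matched by cell name. Sequencing was 150 bp paired-end, per the labels; read depth per cell is unknown, and of all values of the 10 cells 80.1% were 0.

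The members and lists were chosen with earlier results of these data known. Genes with TPM above 0 in at least 3 of 5 cells of either state were compared by the mean of log2(TPM + 1), with a pseudocount of 1 and a size rule of 2-fold. With 1 sample per state, no test of a difference between states was made; Dixon's gap ratio was used only to pick out single cells. The scripts were tested on simulated data with known shifts and almost no zeros. That test therefore does not show how the rules behave with the many zeros of these cells. Named were the 12 highest and 12 lowest differences among genes detected in at least 4 of 5 cells of the higher state, up to 4 members of each of 27 lists, the 4 genes of largest gap in each cell and the marker genes; not all of them are described, and others (such as Ctsg, Per3, Rpl30 and Slc25a5) were named after their values were seen. All 10 cells were kept, no doublet caller was run, and 0 pairs of cells held identical values. Alternatives changed the pseudocount, the filter, the summary over cells, the scaling and the cells. Promoter windows are RefSeq, build GRCm38.p6, which is not the authors' build, and were used for letters only. Python 3.11.15, numpy 2.4.6 and pandas 2.3.3 were used.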

Additional observations from a re-analysis of the deposited data

Results flagged for a closer look

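In each state, 1 cell was set against the other 4 for each measure given above (genes detected, list shares and genes, on the log2 scale), and was picked out where its gap to the nearest cell exceeded 0.71 of the whole range. This happened in 35 of 200 sets of 5 cells. Some of the genes were named after their values were seen, and a set with 4 cells at or near 0 passes easily. The count is therefore not set against a chance rate. Genes named only as among the 4 of largest gap in a cell were left out.

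Among the Multi-Lin cells, cell 17 stood alone in the red cell genes Klf1 (1041 TPM), Car2 (87.6 TPM) and Mfsd2b (357 TPM). Cell 23 stood alone in S100a9 (1451 TPM), Cd4 (389 TPM), Lck (86.4 TPM) and Iqgap1 (849 TPM), and at 0 TPM of Ms4a3. Cell 26 stood alone in Cebpe (175 TPM), Rrm2 (432 TPM), Cd79b (1039 TPM), Irf5 (521 TPM) and the share of the B cell list (0.104% of TPM). It was also the low cell in Ier3 (0 TPM), Fos (119.5 TPM) and Ms4a6c (0.33 TPM). Cell 35 stood alone in Slpi (389 TPM), Rpl30 (158 TPM), Ly86 (0.62 TPM) and the eosinophil list (9.2e-05% of TPM), and was low in Fcer1g (3.07 TPM).

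Among the MP cells, cell 10 stood alone in Cpa3 (29.2 TPM) and Alox5 (29.1 TPM), both mast cell genes, and was low in Ctsg (1639 TPM). Cell 15 stood alone in the basophil protease Mcpt8 (167 TPM), Plek (1.79 TPM), Mfsd2b (1.19 TPM), Irf5 (28.8 TPM) and Lck (4.61 TPM). Cell 24 stood alone in Vamp5 (79.9 TPM) and was low in Mki67 (0.07 TPM) and Ttyh2 (0 TPM). Cell 30 stood alone in Dusp6 (8.20 TPM) and the eosinophil list (7.8e-05% of TPM), and cell 45 in Ldha (3034 TPM).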

How the results depend on the processing

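The counts moved with the scale and the filter, and the median difference was below 0 in all alternatives but the absence of a filter. A pseudocount of 0.1 gave a median of −2.31 over all genes compared and −5.45 over monocyte genes; a pseudocount of 10 gave 364 genes at least 2-fold higher, 2030 lower and medians of −0.55 and −2.18. With no filter, 1103 genes were higher and the median was 0. Genes detected in at least 8 of 10 cells gave 187 higher, 1077 lower, 53 lower without overlap and medians of −1.03 over all, −0.59 over basophil and mast cell genes (reversed; 9 members left) and −3.12 over monocyte genes. Centring the cells on genes detected in all 10, with zeros kept at 0, shifted the median by 0.43 to −0.95, with 901 genes higher, 71 higher without overlap and −3.34 for monocyte genes. Ratios of mean TPM gave −4.25 for monocyte genes, and turned the sign of the erythroid median (0.63) and of Cd34 (0.48). Medians over cells gave 0.58 for basophil and mast cell genes and −5.08 for monocyte genes, and reversed Mfsd2b (−0.28). Causes were not tested.

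The alternatives in this paragraph were chosen after seeing the data. Genes detected in all 10 cells gave 84 higher, 251 lower, 5 and 13 without overlap and a median of −0.34. Ratios of mean TPM gave 1251 higher and a median of −0.49. The 2 Multi-Lin cells with the most genes detected (14 and 17) against the 2 MP cells with the fewest (10 and 45) gave 1333 higher, 744 and 1459 without overlap, −0.76 over all and −1.02 over monocyte genes, with signs turned for the erythroid (3.75), mitosis (2.93) and stem cell (0.89) medians, Fcer1g (0.69) and S100a9 (−0.012).

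Leaving out each cell in turn gave 460 to 640 genes higher, 2793 to 3456 lower, 13 to 46 and 246 to 366 without overlap (fewer cells overlap less), and medians of −1.58 to −1.30 over all genes, 0.17 to 3.45 over basophil and mast cell genes, −3.28 to −1.91 over primary granule genes and −4.96 to −3.26 over monocyte genes. Mfsd2b ranged up to 1.84 and turned to −0.28 without Multi-Lin cell 17. Genes counted as detected only above 1 TPM left the 4 counts within 1.5 times. No paired analysis was possible because the cells of the states share no numbers and no test between them was made.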

Other observations

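Cytokine receptors, interferon-response genes and dendritic cell genes have not been described above. Of 23 cytokine receptors in the table, 2 were at least 2-fold higher in Multi-Lin and 11 lower, and the median was −1.55 over the 13 compared, close to that of all genes compared (−1.38), and −0.60 over all 23. They took 0.0466, 0.137, 0.032, 0.0568 and 0.151% of TPM in the Multi-Lin cells, against 0.209, 0.178, 0.0867, 0.112 and 0.124% in the MP cells, with overlap. Of 17 interferon-response genes, 1 was at least 2-fold higher in Multi-Lin and 6 lower, and they took 0.0441, 0.116, 0.0581, 0.0206 and 0.0167% of TPM in the Multi-Lin cells, against 0.0447, 0.0263, 0.0829, 0.0425 and 0.0602% in the MP cells, with overlap. Of 18 dendritic cell genes, 0 were higher, 3 lower and 9 at 0 in all 10 cells, and they took 0.0304, 0.0141, 0.00587, 0.0919 and 0.0053% of TPM in the Multi-Lin cells, against 0.0811, 0.019, 0.00911, 0.0747 and 0.0272% in the MP cells, with overlap.

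Fewer genes were detected in all 5 cells of Multi-Lin than of MP. Of the genes detected in any Multi-Lin cell (8021), 2910 were detected in exactly 1 of the 5 and 954 in all 5. Of the genes detected in any MP cell (9353), 2191 were detected in exactly 1 and 2472 in all 5. The number of genes detected per cell differs in the same direction, and its part in these counts was not tested.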
